A study of Homo sapiens with 38 samples.

Results

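The genes described here encode the machinery that repairs DNA double-strand breaks by homologous recombination, the Fanconi anaemia pathway and the response to stalled replication forks. They were taken as a list of 37 gene symbols, matched by GENCODE 29 identifiers to the 18011 genes of the deposited count table. The table held 36 of them and ATRIP was not analysed here. RNA was sequenced from OCILY1, PFEIFFER, SUDHL4, SUDHL6, TOLEDO and WSUDLCL2, which are 6 established lines grown from human diffuse large B-cell lymphomas. Each had been exposed to vorinostat, pracinostat or the solvent DMSO. Both drugs are hydroxamic acid inhibitors of histone deacetylases, the enzymes that remove acetyl groups from histones and other proteins.

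At 6 h there were 6 DMSO, 6 pracinostat and 5 vorinostat libraries, and SUDHL6 with vorinostat was not analysed here. At 14 days 5 lines, without SUDHL6, gave 1 library each of pracinostat, vorinostat and of DMSO sets titled DMSOP and DMSOV. The final letter was read as the drug each set was run beside, which the labels do not state. No genetic change was introduced, no dose is given, and each line is 1 cell population with 1 library per treatment and time. The line is therefore the replicate, and whether separate cultures were used within a line is not stated. Both drugs at 6 h were set against the same DMSO libraries. Headers of the deposited normalized values name these DMSOV for OCILY1, SUDHL4, SUDHL6 and WSUDLCL2, and DMSOP for PFEIFFER and TOLEDO. On the same reading, the 6 h DMSO library of a line was run beside only 1 of the drugs.

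Homologous recombination copies lost sequence from the sister chromatid. Broken ends are first trimmed to single strands, which RPA covers, and the BRCA proteins then prepare these strands for pairing with the sister. The Fanconi core complex attaches ubiquitin to the FANCD2 and FANCI pair at crosslinked DNA, and the kinase ATR signals through CHEK1 when forks stall. These proteins work mainly in S and G2 phase, and many of the genes carry binding sites for the E2F factors that drive S phase transcription.

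Library totals ran from 3188528 to 8919622 counts. The 36 genes together took 0.238 to 0.309% of all counts in DMSO at 6 h, 0.231 to 0.339% in DMSOP and 0.311 to 0.331% in DMSOV. At 14 days the share was 0.128 to 0.226% with pracinostat and 0.0894 to 0.215% with vorinostat. In these bulk libraries a smaller number of cycling cells and less RNA of these genes per cell cannot be told apart. The summed level of 7 B-cell markers at 6 h was 2740 to 7030 CPM (counts scaled to library size) in DMSO. It was 2200 to 3760 CPM with pracinostat and 1960 to 3380 CPM with vorinostat. At 14 days the sum was 2590 to 6340 CPM in DMSOP, 2480 to 4610 in DMSOV, 3260 to 8340 with pracinostat and 3910 to 9700 with vorinostat. The 3 myeloid markers in the table, of 6 listed, summed to 0 to 1.67 CPM in the DMSO sets at 14 days and to 0.78 to 37.1 CPM with either drug at 14 days, the highest through CSF1R at 29.5 CPM in WSUDLCL2 with vorinostat. ITGAM reached 14.6 CPM in PFEIFFER with vorinostat. Of 6 T-cell markers 4 were in the table, and their sum reached 1210 CPM through CD8A in PFEIFFER, where CD3D was at 1.51 CPM. Of 4 stromal markers 2 were in the table and summed to 0 to 19.1 CPM in the DMSO sets at 14 days, 0.446 to 79.8 CPM with pracinostat and 0.683 to 61.4 CPM with vorinostat. Of these PDGFRB was higher at 14 days with pracinostat (log2 2.64) and vorinostat (log2 1.55). The part of other cell types in the results was not tested.

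Promoters are shown first as a description of sequence, and a part of E2F sites in any change was not tested. At 14 days 23 of the 36 genes were lower with both drugs. Over all genes 10.2% were called lower with pracinostat and 17.2% with vorinostat, and the share with both was not counted. RefSeq windows (GRCh38.p14), 250 bases before to 50 bases after the gene start, were found for 31 of the 36 genes. Exact E2F matches (TTTGGCGC, TTTCCCGC, TTTCGCGC or TTTGCCGC, either strand) were in 7 of 31 windows, or 22.6%, against 577 of 11279 windows of all genes in the table, or 5.12%. The 7 genes were XRCC2, EXO1, CLSPN, FANCD2, TOPBP1, FANCA and FANCC. Of 20 windows of genes called lower at 14 days with both drugs 6 held a match, and of the other 11 windows 1 did. AUNIP, RAD54L, BRCA2, BRCA1 and CHEK1 held none, at mean log2 fold changes of -2.24, -1.88, -1.7, -1.69 and -1.62 over both drugs. FANCC, at -0.48, held 2 matches. In a list of 25 G1/S and replication genes the share was 14 of 21 windows, or 66.7%. In other genes of the same pathways, outside the 36, it was 4 of 42, or 9.52%. Mismatch repair had 3 of 5, E2F and DREAM regulators of cell cycle genes 6 of 15, and G2/M genes 2 of 20. End joining had 1 of 15, and base and nucleotide excision repair 1 of 19. The CHR element (TTTGAA, either strand), known from genes of mitosis, was in 2 of 31 windows, or 6.5%, against 10.1% of all windows and 14 of 20, or 70.0%, in a list of 25 G2/M genes. CCAAT boxes (CCAAT, either strand) were in 14 of 31, or 45.2%, against 36.6%. A match is a description of letters and not a measured binding site.

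The windows below are those of the 4 matched genes with the deepest fall at 14 days, and that of ATR, the kinase gene of the stress response, which changed little and held no E2F match. Each reads 5′ to 3′ in the direction of the gene, with the E2F match in capitals. XRCC2 lies at chr7:152676092-152676391, minus strand, EXO1 at chr1:241847954-241848253, plus strand, CLSPN at chr1:35769929-35770228, minus strand, FANCD2 at chr3:10026187-10026486, plus strand and ATR at chr3:142578684-142578983, minus strand. The match began 5 bases before the start of CLSPN, 2 before that of FANCD2, 5 after that of EXO1 and 22 after that of XRCC2.
XRCC2: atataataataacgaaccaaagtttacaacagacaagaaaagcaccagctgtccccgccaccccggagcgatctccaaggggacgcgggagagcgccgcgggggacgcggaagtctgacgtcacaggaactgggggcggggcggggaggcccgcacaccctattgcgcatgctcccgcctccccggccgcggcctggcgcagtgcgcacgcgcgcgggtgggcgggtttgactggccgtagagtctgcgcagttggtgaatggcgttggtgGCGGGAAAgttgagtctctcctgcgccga
EXO1: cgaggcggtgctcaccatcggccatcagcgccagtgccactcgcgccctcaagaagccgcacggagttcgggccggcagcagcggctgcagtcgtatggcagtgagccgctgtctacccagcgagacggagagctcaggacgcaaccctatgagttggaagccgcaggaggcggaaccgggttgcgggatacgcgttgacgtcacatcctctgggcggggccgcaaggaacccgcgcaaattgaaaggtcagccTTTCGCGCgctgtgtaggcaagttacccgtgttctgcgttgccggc
CLSPN: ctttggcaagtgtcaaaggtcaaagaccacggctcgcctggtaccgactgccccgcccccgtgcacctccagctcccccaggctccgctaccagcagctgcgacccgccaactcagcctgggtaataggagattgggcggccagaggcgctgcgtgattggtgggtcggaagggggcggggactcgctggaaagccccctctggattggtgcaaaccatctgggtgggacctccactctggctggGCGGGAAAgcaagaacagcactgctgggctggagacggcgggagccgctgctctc
FANCD2: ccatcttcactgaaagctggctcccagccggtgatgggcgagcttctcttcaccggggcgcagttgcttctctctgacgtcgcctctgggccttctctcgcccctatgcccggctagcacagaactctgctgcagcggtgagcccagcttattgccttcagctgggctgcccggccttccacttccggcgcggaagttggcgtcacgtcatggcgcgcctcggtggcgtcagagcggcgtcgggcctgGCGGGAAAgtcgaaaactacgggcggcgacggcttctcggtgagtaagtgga
ATR: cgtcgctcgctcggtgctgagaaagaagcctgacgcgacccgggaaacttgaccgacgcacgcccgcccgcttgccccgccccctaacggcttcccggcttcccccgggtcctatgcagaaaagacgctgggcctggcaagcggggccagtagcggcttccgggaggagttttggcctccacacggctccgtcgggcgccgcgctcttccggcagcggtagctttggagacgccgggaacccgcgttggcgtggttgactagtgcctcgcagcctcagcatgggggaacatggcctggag

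Per kb of exon in the 16 DMSO libraries, medians ran from 46.4 CPM per kb for RPA1, a subunit of the single-strand binding complex, to 1.16 for FANCC, a core complex subunit. TIMELESS (38.8), RPA2 (38.3) and TOPBP1 (33.7) followed RPA1. RAD51D (2.87), RAD54B (1.82) and FANCC were lowest, and BRCA1 (14.2) stood well above BRCA2 (4.39). The ranges of neighbours in this order overlapped, as with RPA1 at 19.6 to 69.6 and TIMELESS at 24.9 to 65.3. TOLEDO had the highest 6 h DMSO level for 12 of the genes and SUDHL4 the lowest for 13. Resection nuclease EXO1 differed most plainly between lines, with 135 CPM in TOLEDO and 20.3 CPM in SUDHL4 at 6 h.

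After 14 days most of the genes were lower. Pracinostat lowered 24 of the 36 and raised none, and vorinostat lowered 30 and raised none, at an adjusted p under 0.05 (edgeR quasi-likelihood test with line as block, Benjamini-Hochberg over 14037 genes). Of all genes tested 10.2% were called lower with pracinostat and 17.2% with vorinostat, and 12.3% and 20.4% higher. In either direction 22.6% and 37.6% were called. The median log2 fold change of the 36 genes was -0.90 with pracinostat and -1.13 with vorinostat, against 0.07 and 0.12 over all genes. Estimates were below 0 for 35 of 36 genes with either drug, FANCF being the exception. Over all 14037 genes tested, 6251 were below 0 with pracinostat and 6015 with vorinostat. Of the 36 genes 23 were called lower with both. For 25 genes the level was lower in every line with both drugs. The share of all genes called lower with both drugs, or lower in every line with both, was not counted. Without PFEIFFER 10 genes were called with pracinostat and without SUDHL4 15, all lower. The 10 called whichever line was left out were BRCA1, RAD54L, RAD54B, BLM, AUNIP, FANCG, FANCM, FANCD2, FANCI and TIMELESS. With vorinostat 27 to 31 were called when any 1 line was left out, and 26 of the 30 kept their call each time.

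**Figure D1:**
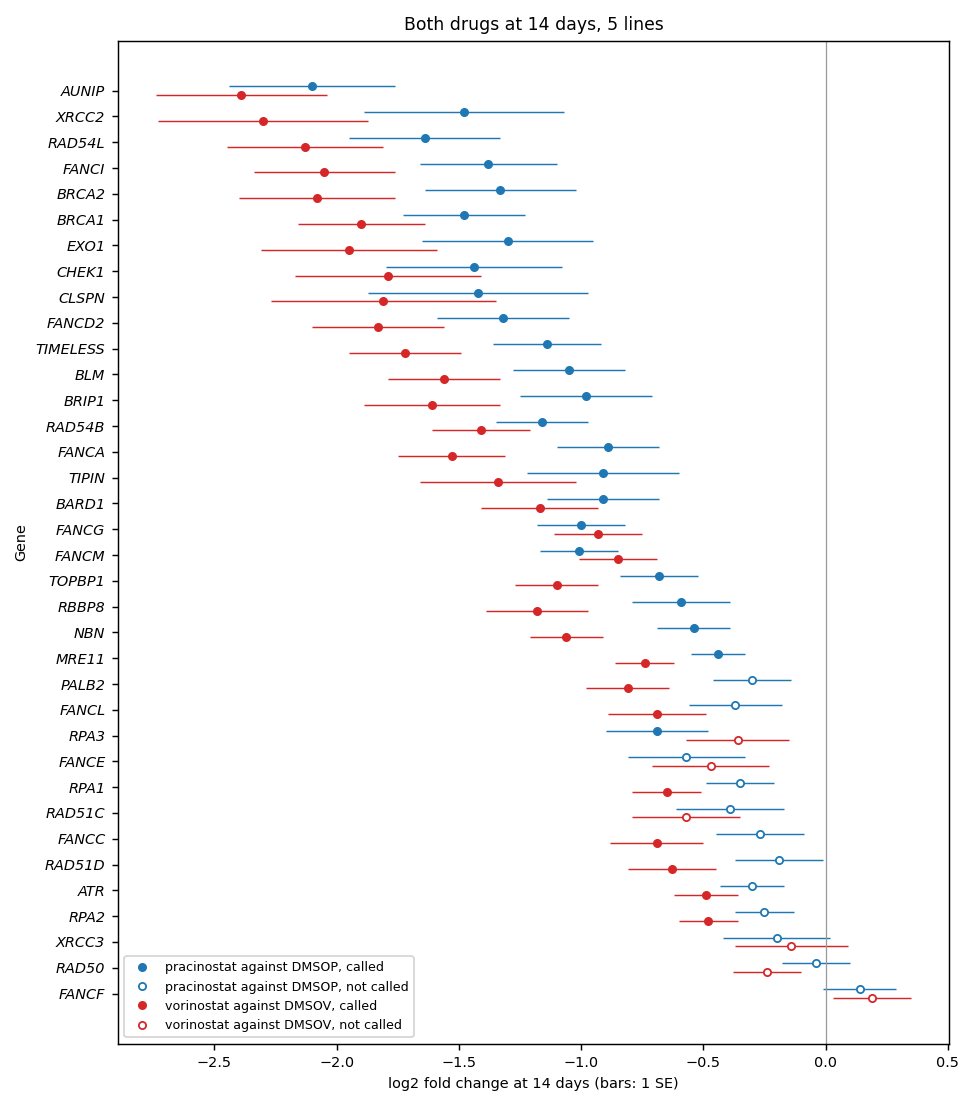
Log2 fold change at 14 days (x axis) of 36 genes (y axis, ordered by the mean of both drugs) over 5 lines, with bars of 1 SE. Filled points were called at an adjusted p under 0.05. AUNIP lies lowest at -2.10 with pracinostat and -2.39 with vorinostat, and only FANCF lies above 0.

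All 4 genes of the BRCA hub were lower with vorinostat at 14 days and 3 with pracinostat. BRCA1 (chromosome 17, 43044295 to 43170245, minus strand, GRCh38), the scaffold that starts resection and recruits the other BRCA proteins, stood in DMSOP at 129 CPM in OCILY1, 204 in PFEIFFER, 111 in SUDHL4, 151 in TOLEDO and 90.6 in WSUDLCL2. With pracinostat BRCA1 was at 59.9, 48.1, 20.1, 87.2 and 39.4 CPM in the same order. Each pracinostat library lay below every DMSOP library, as for 8 of the 36 genes and 1.99% of all genes. The log2 fold change was -1.48 (SE 0.25, edgeR adjusted p = 0.00149).

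For vorinostat, BRCA1 was at 129, 206, 131, 187 and 132 CPM in DMSOV and at 62.2, 41.0, 16.7, 42.1 and 49.4 CPM with the drug (log2 -1.90, SE 0.26, edgeR adjusted p = 0.000101). SUDHL4 was lowest with both drugs, and the groups did not overlap, as for 15 of the 36 genes and 4.22% of all genes. BRCA2, which acts on the trimmed strands after BRCA1, fell with both drugs (log2 -1.33 and -2.08), as did BARD1, the partner of BRCA1 (log2 -0.91 and -1.17). The BRCA2 call with pracinostat was lost without PFEIFFER (-1.24, adjusted p = 0.0572). PALB2, the bridge between BRCA1 and BRCA2, moved least in this group. It stood at 36.1, 41.2, 35.2, 32.5 and 27.3 CPM in DMSOP and at 34.9, 26.9, 26.8, 27.8 and 21.2 with pracinostat (log2 -0.30, SE 0.16, edgeR adjusted p = 0.194), so the groups overlapped. With vorinostat PALB2 fell by 0.81 (SE 0.17, edgeR adjusted p = 0.00147), from 37.7, 42.8, 31.7, 38.2 and 40.7 CPM to 27.5, 25.3, 11.6, 17.9 and 25.2 CPM.

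Among the strand exchange paralogs (RAD51C, RAD51D, XRCC2 and XRCC3), which help prepare the trimmed strand for pairing, XRCC2 (chromosome 7, 152644779 to 152676165, minus strand) showed the largest change. Its DMSOP levels were 55.6, 65.1, 51.8, 84.2 and 26.9 CPM in OCILY1, PFEIFFER, SUDHL4, TOLEDO and WSUDLCL2, and its pracinostat levels 19.2, 11.8, 10.5, 61.8 and 15.8 CPM. TOLEDO stayed above 3 of the DMSOP libraries, so the groups overlapped (log2 -1.48, SE 0.41, edgeR adjusted p = 0.0181). That call was lost without OCILY1 (adjusted p = 0.0509), without PFEIFFER (0.103) or without SUDHL4 (0.0594). With vorinostat XRCC2 went from 57.1, 64.0, 52.9, 105 and 59.7 CPM to 25.2, 6.54, 1.71, 17.3 and 20.0 CPM, with no overlap (log2 -2.30, SE 0.43, edgeR adjusted p = 0.00086).

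RAD51C was not called in any drug comparison. It stood at 37.0, 57.3, 18.6, 61.3 and 23.2 CPM in DMSOP and 33.1, 31.3, 13.0, 44.0 and 24.1 with pracinostat (log2 -0.39, SE 0.22). In DMSOV it was at 41.9, 66.9, 23.5, 52.1 and 40.4 CPM and with vorinostat at 31.0, 30.1, 8.88, 34.3 and 46.7 (log2 -0.57, SE 0.22, edgeR adjusted p = 0.0535). WSUDLCL2 was the line in which RAD51C did not decline, and without it the vorinostat value was -0.84 (edgeR adjusted p = 0.00277). XRCC3 was called nowhere in these tests either, and its counts are uncertain because 76.7% of its exon bases overlap KLC1 on the opposite strand. RAD51D fell by 0.63 with vorinostat (SE 0.18, edgeR adjusted p = 0.0132) and was at -0.19 with pracinostat (SE 0.18). Its vorinostat call was lost without SUDHL4, TOLEDO or WSUDLCL2, at adjusted p = 0.0717, 0.0804 and 0.0526.

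The translocases RAD54L and RAD54B, motor proteins that act during strand pairing, and the helicase BLM, which unwinds recombination intermediates, were lower at 14 days with both drugs. RAD54L (chromosome 1, 46247688 to 46278473, plus strand) stood within a narrow range of 30.2 to 37.2 CPM in DMSOP. It was at 12.7, 8.64, 3.65, 20.6 and 12.7 CPM with pracinostat in OCILY1, PFEIFFER, SUDHL4, TOLEDO and WSUDLCL2 (log2 -1.64, SE 0.31, edgeR adjusted p = 0.00254). With vorinostat RAD54L was at 13.1, 6.68, 2.73, 7.04 and 9.82 CPM against 26.1 to 42.8 CPM in DMSOV (log2 -2.13, SE 0.32, edgeR adjusted p = 0.000197). The helicase gene BLM was at 81.9, 265, 85.9, 91.0 and 70.8 CPM in DMSOP and at 34.7, 91.6, 31.2, 46.8 and 67.1 with pracinostat, PFEIFFER standing highest in both (log2 -1.05, SE 0.23, edgeR adjusted p = 0.00496). With vorinostat BLM was at 41.5, 76.4, 14.3, 24.0 and 57.7 CPM against 75.5, 279, 81.4, 108 and 115 in DMSOV (log2 -1.56, SE 0.23, edgeR adjusted p = 0.000176). RAD54L libraries did not overlap in either comparison, while those of BLM did, and 25.1% of RAD54L exon bases overlap LRRC41 on the opposite strand. The counts of RAD54B are uncertain, since 59.1% of its exon bases are shared with FSBP on the same strand.

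In end resection 5 of 6 genes were lower with each drug. The largest change of all 36 was in AUNIP (chromosome 1, 25831913 to 25859458, minus strand), whose product binds DNA and holds the resection factor CtIP at breaks. AUNIP went from 9.46, 14.7, 25.1, 15.6 and 13.9 CPM in DMSOP to 3.53, 3.13, 2.77, 5.30 and 2.23 CPM with pracinostat (log2 -2.10, SE 0.34, edgeR adjusted p = 0.00113). With vorinostat it went from 9.57, 17.7, 22.1, 12.1 and 21.5 CPM to 2.32, 2.70, 1.02, 2.89 and 6.14 CPM (log2 -2.39, SE 0.35, edgeR adjusted p = 0.00016). In SUDHL4 with vorinostat 3 counts correspond to 0.941 CPM, near the AUNIP level of 1.02 CPM. Every treated library lay below every control library in both comparisons. A share of 9.9% of its exon bases overlap MTFR1L on the opposite strand.

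EXO1, the long-range resection nuclease, fell with pracinostat (log2 -1.30, SE 0.35, edgeR adjusted p = 0.0155) and with vorinostat (log2 -1.95, SE 0.36, edgeR adjusted p = 0.000881). In SUDHL4 it was at 0.683 CPM with vorinostat against 33.5 CPM in DMSOV, and in TOLEDO at 21.8 against 160 CPM. Its pracinostat call was lost without OCILY1 (adjusted p = 0.058) or PFEIFFER (0.0812). RAD50, the coiled-coil subunit of the complex that first binds a break, was not called with either drug, unlike its partners. The counts of RAD50 are uncertain, since 79.7% of its exon bases are shared with AC116366.3 on the same strand. In DMSOP RAD50 stood at 136, 249, 162, 129 and 136 CPM and with pracinostat at 132, 170, 159, 160 and 134 CPM (log2 -0.04, SE 0.14). In DMSOV RAD50 was at 145, 254, 169, 151 and 183 CPM and with vorinostat at 125, 163, 119, 131 and 196 CPM (log2 -0.24, SE 0.14, edgeR adjusted p = 0.195). The groups overlapped in both comparisons. Its partners fell, MRE11 by log2 -0.44 with pracinostat and -0.74 with vorinostat and NBN by -0.54 and -1.06. The NBN call with pracinostat was lost without OCILY1 (edgeR adjusted p = 0.0797) or PFEIFFER (0.106). That of MRE11 was lost without OCILY1 (edgeR adjusted p = 0.0688), PFEIFFER (0.0835) or SUDHL4 (0.0622). A difference between RAD50 and its partners was not tested.

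Within the Fanconi core complex 3 of 7 genes were lower with pracinostat and 5 with vorinostat. FANCM (chromosome 14, 45135940 to 45200890, plus strand), the translocase that anchors the core at DNA, went from 32.1, 29.7, 27.1, 23.6 and 34.2 CPM in DMSOP to 14.6, 12.2, 10.6, 20.0 and 14.3 CPM with pracinostat (log2 -1.01, SE 0.16, edgeR adjusted p = 0.00114). The groups did not overlap. With vorinostat it was at 19.1, 13.4, 13.3, 15.7 and 25.8 CPM against 24.4 to 42.7 CPM in DMSOV, an overlap through WSUDLCL2 alone (log2 -0.85, SE 0.16, edgeR adjusted p = 0.000964). FANCF, an adaptor subunit of the core, was the only gene with an estimate above 0 at 14 days, at 0.14 (SE 0.15) with pracinostat and 0.19 (SE 0.16) with vorinostat. Its levels were 14.9, 35.0, 16.4, 27.0 and 12.3 CPM in DMSOP, 17.3, 41.5, 16.0, 36.5 and 8.91 with pracinostat and 14.4, 35.6, 16.4, 34.3 and 13.2 with vorinostat. PFEIFFER and TOLEDO were highest in each group, and treated and control ranges overlapped throughout. FANCE, which holds FANCD2 to the core, was at -0.57 (SE 0.24, edgeR adjusted p = 0.0896) and -0.47 (SE 0.24, edgeR adjusted p = 0.132).

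The substrates of the core, FANCD2 and FANCI, and the helicase BRIP1 fell with both drugs. FANCD2 (chromosome 3, 10026414 to 10101930, plus strand) stood at 106, 132, 118, 63.7 and 119 CPM in DMSOP and at 40.5, 36.7, 24.4, 45.2 and 68.0 with pracinostat (log2 -1.32, SE 0.27, edgeR adjusted p = 0.00359). In DMSOV it was at 102, 129, 130, 84.2 and 141 CPM and with vorinostat at 53.7, 26.2, 18.4, 15.5 and 58.9 CPM (log2 -1.83, SE 0.27, edgeR adjusted p = 0.000187). TOLEDO showed the smallest difference with pracinostat and was the lowest library with vorinostat. FANCI fell as well (log2 -1.38 and -2.05). BRIP1 moved least of the 3, from 60.1, 55.9, 38.6, 79.5 and 50 CPM in DMSOP to 40.5, 18.2, 13.0, 52.6 and 28.3 with pracinostat (log2 -0.98, SE 0.27, edgeR adjusted p = 0.0166), a call lost without PFEIFFER (adjusted p = 0.107) or SUDHL4 (0.0726). In DMSOV BRIP1 was at 67.6, 56.0, 54.0, 98.8 and 66.4 CPM and with vorinostat at 44.3, 19.8, 8.54, 13.7 and 28.5, without overlap (log2 -1.61, SE 0.28, edgeR adjusted p = 0.000481).

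Of the 6 measured genes of ATR signalling and fork protection 5 were lower with pracinostat and 6 with vorinostat. TIMELESS (chromosome 12, 56416373 to 56449403, minus strand), which protects forks as a pair with TIPIN, went from 244, 247, 223, 321 and 157 CPM in DMSOP to 174, 70.3, 64.7, 209 and 67.7 CPM with pracinostat (log2 -1.14, SE 0.22, edgeR adjusted p = 0.00289). With vorinostat TIMELESS was at 139, 56.2, 45.1, 96.8 and 60.5 CPM against 168 to 380 CPM in DMSOV, without overlap (log2 -1.72, SE 0.23, edgeR adjusted p = 7.55e-05). CHEK1, the kinase that ATR activates, fell with both drugs (log2 -1.44 and -1.79), and so did CLSPN, the adaptor between them (log2 -1.42 and -1.81). With pracinostat the CLSPN call was lost without OCILY1, PFEIFFER, SUDHL4 or TOLEDO (adjusted p = 0.0574, 0.121, 0.067 and 0.0706). ATR itself moved least in its group. It was at 117, 81.6, 110, 67.6 and 55.6 CPM in DMSOP, 94.2, 50.7, 101, 56.5 and 45.7 with pracinostat (log2 -0.30, SE 0.13, edgeR adjusted p = 0.104) and 94.2, 59.6, 82.3, 43.0 and 57.7 with vorinostat (log2 -0.49, SE 0.13, edgeR adjusted p = 0.00871). The vorinostat call was lost without TOLEDO (-0.41, adjusted p = 0.0562).

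The RPA subunits had a median log2 fold change of -0.35 with pracinostat and -0.48 with vorinostat. RPA1 and RPA2 fell with vorinostat (log2 -0.65, SE 0.14, and -0.48, SE 0.12) and were at -0.35 and -0.25 with pracinostat, where neither was called. RPA2 ranged from 56.5 to 88.7 CPM in DMSOP, 42.3 to 94.7 with pracinostat, 61.9 to 89.8 in DMSOV and 39.6 to 77.9 with vorinostat, so the groups overlapped. RPA3, the smallest subunit, was at 90.7, 66.9, 78.7, 64.7 and 74.0 CPM in DMSOP and at 59.5, 36.1, 34.9, 53.4 and 48.8 with pracinostat, without overlap (log2 -0.69, SE 0.21, edgeR adjusted p = 0.0252). That call was lost without OCILY1, PFEIFFER or SUDHL4, at adjusted p = 0.0669, 0.103 and 0.089. With vorinostat WSUDLCL2 stood apart at 126 CPM against 89.9 in DMSOV, and the fold change was -0.36 (SE 0.21, edgeR adjusted p = 0.184). Without WSUDLCL2 it was -0.65 (edgeR adjusted p = 0.00869).

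**Figure D2:**
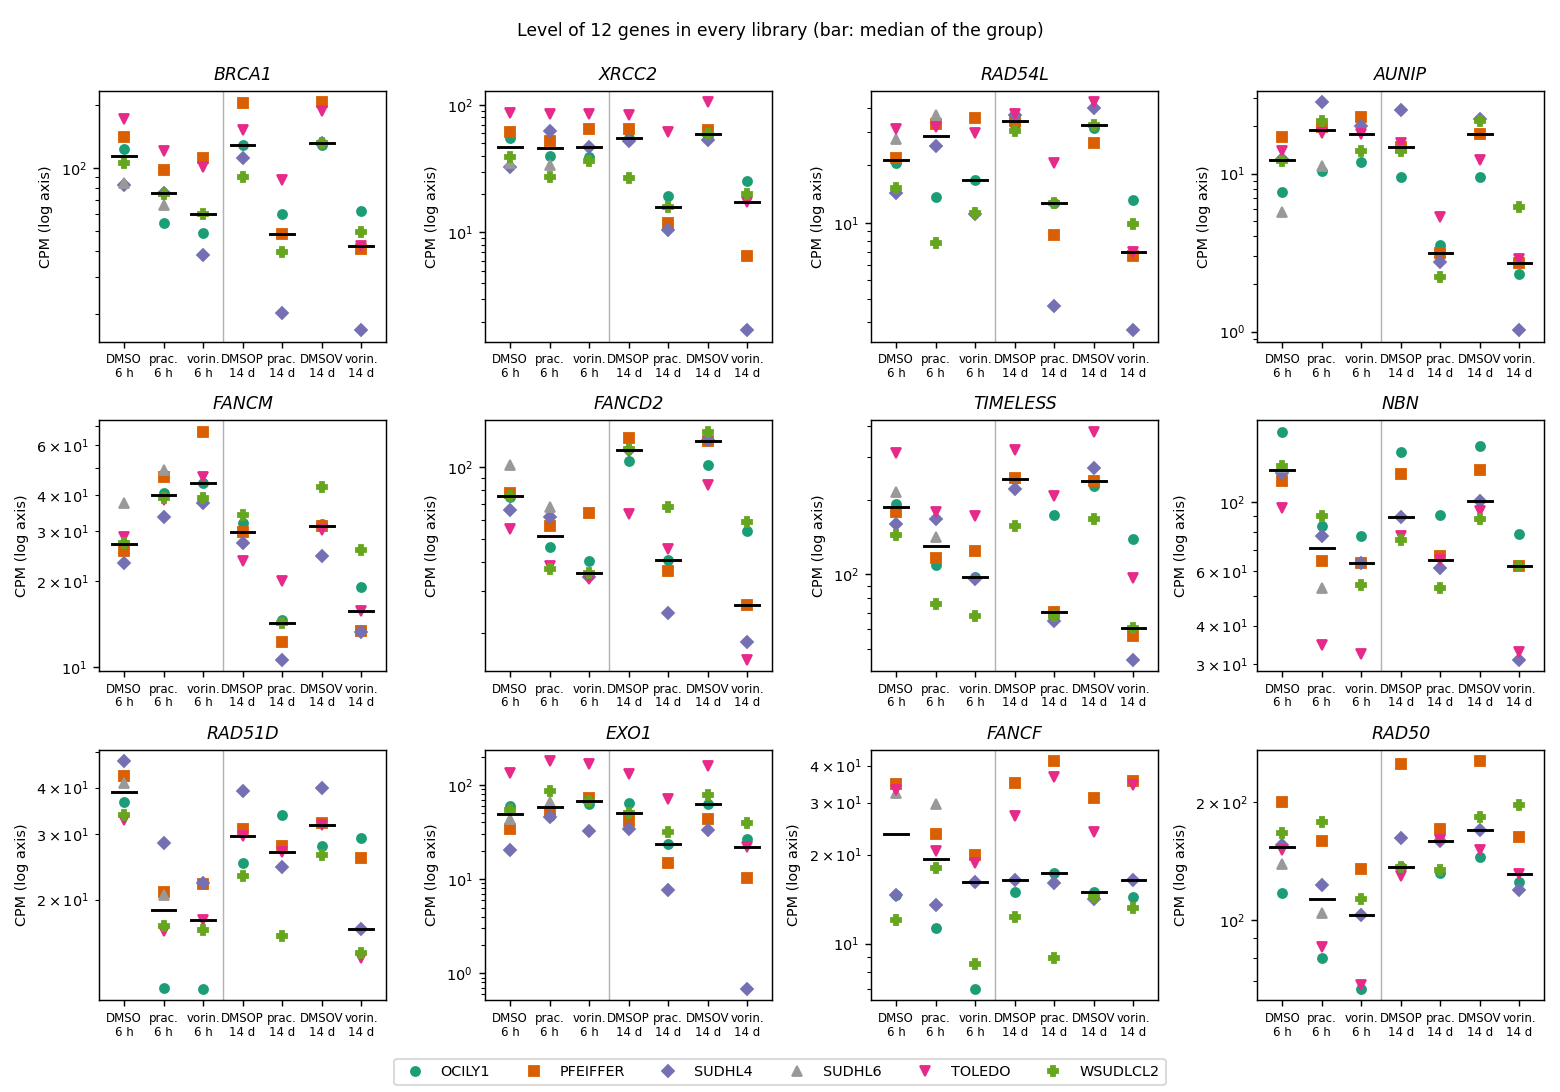
Level in CPM on a log axis of 12 genes (panels) in each library, by group on the x axis. Points are lines and bars are group medians. AUNIP, RAD54L and BRCA1 separate from both DMSO sets at 14 days, while RAD50 and FANCF overlap them.

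The size of the difference varied between lines. With pracinostat the median difference of the 36 genes (log2 CPM, drug minus DMSOP) was -1.39 in SUDHL4, -1.17 in PFEIFFER, -0.61 in WSUDLCL2, -0.57 in OCILY1 and -0.46 in TOLEDO. At least 2-fold lower were 22, 19, 12, 11 and 3 of the 36 in that order, against 7.95, 6.59, 4.32, 4.30 and 2.57% of 10636 genes with a mean of at least 5 CPM. With vorinostat the median was -1.77 in SUDHL4, -1.49 in TOLEDO, -1.18 in PFEIFFER, -0.81 in WSUDLCL2 and -0.54 in OCILY1, with 28, 25, 23, 12 and 8 genes at least 2-fold lower against 15.5, 14.5, 8.27, 8.47 and 4.42% of all. None of the 36 was at least 2-fold higher in any line at 14 days, where 6.47 to 13.5% of the 10636 genes were. SUDHL4 was deepest with both drugs, and TOLEDO was shallowest with pracinostat and next to SUDHL4 with vorinostat. Each of these line values rests on 1 library against 1 library and was not tested.

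Proliferation genes moved beside them. Of 25 G2/M genes all were lower with both drugs (median -1.58 with pracinostat and -1.96 with vorinostat), and of 25 G1/S and replication genes 16 and 21 were lower (median -1.11 and -1.41). MKI67, a marker of cycling cells, fell with pracinostat (log2 -1.58, SE 0.38, edgeR adjusted p = 0.00884) and vorinostat (log2 -2.47, SE 0.40, edgeR adjusted p = 0.000314). By line, the G2/M median with vorinostat was -4.14 in SUDHL4, -2.56 in TOLEDO, -2.40 in PFEIFFER, -1.13 in OCILY1 and -0.82 in WSUDLCL2. In OCILY1 the median of the 36 genes lay below that of the G1/S list with both drugs, at -0.57 against -0.34 and -0.54 against -0.27. Mitochondrial transcripts, at 5.48 to 9.79% of counts in the DMSO sets, took 8.84 to 13.3% with the drugs. The part of cell cycle state and of RNA composition in the fall of the 36 genes was not tested.

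**Figure D3:**
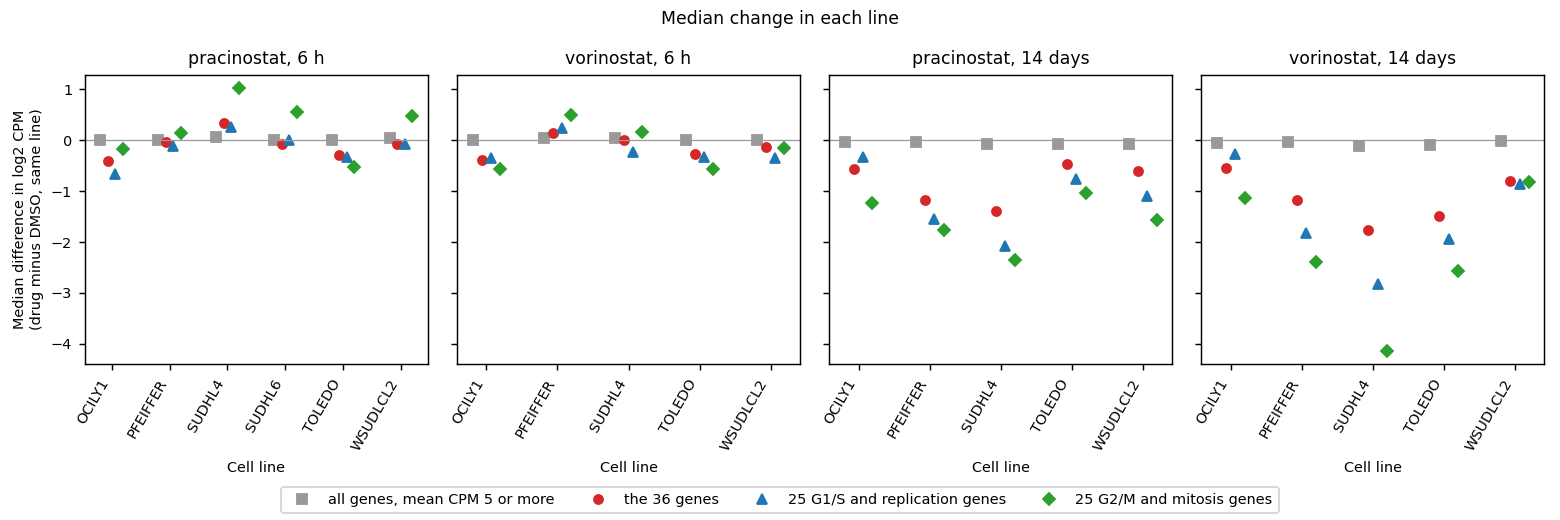
Median difference in log2 CPM between drug and DMSO of the same line (y axis) for the 36 genes, 2 proliferation lists and all genes with a mean of at least 5 CPM, by line (x axis) and comparison (panels). At 14 days the 36 genes lie below all genes in each line and above the G2/M list, though level with it in WSUDLCL2 with vorinostat (-0.81 and -0.82).

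Other genes of the same pathways, outside the 36, moved less uniformly. Of 48 tested, 17 were lower and 2 higher with pracinostat (median -0.30), and 22 were lower and 5 higher with vorinostat (median -0.41). The nuclease genes DNA2 and EME1 were at log2 -1.50 and -1.60 with pracinostat and at -1.85 and -1.65 with vorinostat, all called lower. Against this direction SWSAP1, another recombination gene, rose by 0.94 and 1.09 on the log2 scale, and ERCC1, a nuclease subunit for crosslinks, by 0.62 and 0.84.

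At 6 h the same genes were split. Pracinostat raised 6 and lowered 10 of the 36 and vorinostat raised 6 and lowered 12, where 40.1% and 43.9% of 13177 genes were called, so the shares of 16 and 18 in 36 were near that background. Of all genes 21.2% were called higher and 18.9% lower with pracinostat, and 23.1% and 20.9% with vorinostat. The median was -0.12 and -0.15, against 0.03 and 0.02 over all genes. Scaled to library totals, pracinostat raised 10 and lowered 8 of the 36 (all genes, 3556 and 1929 in place of 2794 and 2495). That scaling put the median of all genes at 0.13 and not 0.03 for pracinostat at 6 h, and at 0.01 and not 0.12 for vorinostat at 14 days. Called in the same direction with both drugs at 6 h were 9 lower and 5 higher genes, and the drugs share their DMSO libraries. The share of all genes called with both drugs was not counted.

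The deepest early falls were in RAD51D, NBN and FANCC. RAD51D (chromosome 17, 35092208 to 35121522, minus strand) had 32.8, 39.0 and 47.2 CPM as lowest, median and highest of 6 DMSO libraries and 11.6, 18.8 and 28.4 CPM with pracinostat (log2 -1.09, SE 0.13, edgeR adjusted p = 1.73e-05). With vorinostat RAD51D was at 11.5 in OCILY1, 22.0 in PFEIFFER, 22.1 in SUDHL4, 17.6 in TOLEDO and 16.6 in WSUDLCL2 (log2 -1.15, SE 0.14, edgeR adjusted p = 1.35e-05). Neither drug group overlapped DMSO, as for 2 of the 36 genes lying below it with pracinostat and 2.14% of all genes, and for 3 and 3.80% with vorinostat. OCILY1 was lowest with both drugs. A share of 8.0% of RAD51D exon bases lie in RAD51L3-RFFL on the same strand.

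NBN, the signalling subunit of the break-binding complex, had 96.1, 127 and 169 CPM in DMSO and 34.7, 71.2 and 90.6 CPM with pracinostat (log2 -0.99, SE 0.12, edgeR adjusted p = 1.78e-05). With vorinostat NBN was at 77.7, 63.7, 63.8, 32.4 and 54.1 CPM in OCILY1, PFEIFFER, SUDHL4, TOLEDO and WSUDLCL2 (log2 -1.22, SE 0.13, edgeR adjusted p = 3.97e-06). TOLEDO was the lowest line in each group. FANCC fell with pracinostat (log2 -0.71, SE 0.15) and vorinostat (log2 -1.29, SE 0.16). BRCA1, NBN, RBBP8 (the gene of CtIP), FANCD2, TIMELESS and TIPIN were called lower in all 4 drug comparisons. BRCA1, FANCD2 and TIMELESS kept these calls whichever line was left out. The share of all genes called lower in all 4 was not counted, and the 6 h comparisons share their DMSO libraries. With pracinostat at 6 h RBBP8 was lost without OCILY1 (adjusted p = 0.0596) and TIPIN without OCILY1 (0.111) or TOLEDO (0.075). With pracinostat at 14 days RBBP8 was lost without PFEIFFER, SUDHL4, TOLEDO or WSUDLCL2 (adjusted p = 0.0786 to 0.168) and TIPIN without PFEIFFER, SUDHL4 or TOLEDO (0.127 to 0.209).

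Several genes that fell at 14 days showed a smaller early change or none that was called. BRCA1 had 82.4, 114 and 171 CPM as lowest, median and highest in 6 h DMSO and 54.2, 75.6 and 121 with pracinostat (log2 -0.54, SE 0.14, edgeR adjusted p = 0.0065). With vorinostat BRCA1 was at 48.9, 112, 38.1, 101 and 60.1 CPM in OCILY1, PFEIFFER, SUDHL4, TOLEDO and WSUDLCL2 (log2 -0.87, SE 0.15, edgeR adjusted p = 0.000291). The groups overlapped, with TOLEDO and PFEIFFER high throughout. TIMELESS had 145, 187 and 312 CPM in DMSO, 76.0, 130 and 180 with pracinostat (log2 -0.63, SE 0.12, edgeR adjusted p = 0.000713) and 67.9, 97.4 and 173 with vorinostat (log2 -0.87, SE 0.13, edgeR adjusted p = 7.32e-05). FANCD2 had 54.9, 75.4 and 102 CPM in DMSO, 37.1, 51.3 and 68.2 with pracinostat (log2 -0.58) and 33.7, 35.8 and 64.2 with vorinostat (log2 -0.80), both called. For these genes the lowest DMSO library lay within the range of each drug group.

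XRCC2 had 32.6, 47.0 and 86.4 CPM in DMSO, 27.4, 46.0 and 85.6 with pracinostat and 36.7, 47.2 and 85.2 with vorinostat, with estimates of -0.08 and -0.05 that were not called. RAD54L stood at 14.3, 21.2 and 31.1 CPM in DMSO, 7.85, 28.5 and 36.5 with pracinostat and 11.1, 16.8 and 35.4 with vorinostat (0.07 and -0.08). BRIP1 stood at 43.4, 52.0 and 88.7, at 49.0, 59.6 and 87.9 and at 42.8, 60.5 and 84 CPM in the same groups (0.09 and 0.07). Drug and DMSO ranges overlapped for each of these genes, and those of RAD54L were wider with either drug. With pracinostat the log2 CPM difference of RAD54L ran from -0.93 in WSUDLCL2 to 0.82 in SUDHL4. PALB2 (-0.17 and -0.16), RAD51C (0.20 and 0.06), ATR (-0.09 and -0.06) and RPA2 (-0.10 and -0.21) were not called at 6 h either, and their groups overlapped.

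Raised with both drugs at 6 h were EXO1 and AUNIP of end resection, the helicase gene BLM, and FANCE and FANCM of the Fanconi group. AUNIP had 5.75, 12.2 and 17.0 CPM as lowest, median and highest in DMSO and 10.3, 18.9 and 28.2 with pracinostat, and it was higher in 6 of 6 lines (log2 0.65, SE 0.16, edgeR adjusted p = 0.00387). With vorinostat it was at 11.8, 22.8, 20.0, 17.9 and 13.9 CPM in OCILY1, PFEIFFER, SUDHL4, TOLEDO and WSUDLCL2 and higher in 5 of 5 lines (log2 0.46, SE 0.17, edgeR adjusted p = 0.0348). The groups overlapped, and the vorinostat call was lost without any of OCILY1, PFEIFFER, SUDHL4, SUDHL6 or TOLEDO (adjusted p = 0.0534 to 0.101). FANCM had 23.1, 27.0 and 37.5 CPM in DMSO and 33.5, 40.0 and 49.2 with pracinostat (log2 0.54, SE 0.11, edgeR adjusted p = 0.00157). With vorinostat FANCM was at 44.2, 66.9, 37.5, 46.5 and 39.1 CPM (log2 0.77, SE 0.12, edgeR adjusted p = 0.000117). Every vorinostat library stood level with or above the highest DMSO library, as for 1 of the 36 genes and 2.81% of all.

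EXO1 rose by 0.49 with pracinostat (SE 0.16, edgeR adjusted p = 0.0202) and 0.46 with vorinostat (SE 0.16, edgeR adjusted p = 0.0343). It had 20.3, 48.7 and 135 CPM in DMSO and 46.0, 58.6 and 180 with pracinostat, and 63.1, 72.0, 32.7, 168 and 68.4 CPM with vorinostat. TOLEDO was highest in each group and all groups overlapped. The EXO1 calls were lost when SUDHL4, SUDHL6 or WSUDLCL2 was left out with pracinostat (adjusted p = 0.0905, 0.0537 and 0.0641) and when PFEIFFER, SUDHL4, SUDHL6, TOLEDO or WSUDLCL2 was left out with vorinostat (0.0532 to 0.149). BLM had 55.1, 80.5 and 125 CPM in DMSO and 69.0, 109 and 184 with pracinostat (log2 0.41, SE 0.12, edgeR adjusted p = 0.0102). With vorinostat BLM was at 75.6, 234, 78.5, 125 and 106 CPM, highest in PFEIFFER (log2 0.37, SE 0.12, edgeR adjusted p = 0.0237), and without PFEIFFER the call was lost (0.25, adjusted p = 0.111).

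FANCE had 5.39, 14.4 and 25.9 CPM in DMSO and 11.8, 20.3 and 46.8 with pracinostat (log2 0.57, SE 0.16, edgeR adjusted p = 0.00892), and 17.8, 20.9, 13.8, 32.8 and 22.3 CPM with vorinostat (log2 0.72, SE 0.17, edgeR adjusted p = 0.00246). Its pracinostat call was lost without OCILY1 (0.48, adjusted p = 0.0527). RPA3 rose with pracinostat by 0.54 (SE 0.14, edgeR adjusted p = 0.00789), from 39.6, 64.4 and 75.3 CPM to 64.8, 79.8 and 135 CPM, the highest in WSUDLCL2. With vorinostat it was at 0.23 (SE 0.15) and not called. FANCG, another core subunit, had 24.4, 33.7 and 59.2 CPM in DMSO and 39.7, 40.8, 36.2, 70.2 and 44.2 with vorinostat, higher in 5 of 5 lines and overlapping DMSO. It rose by 0.39 (SE 0.14, edgeR adjusted p = 0.033), a call lost without any 1 of the 6 lines (adjusted p = 0.0502 to 0.0581).

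**Figure D4:**
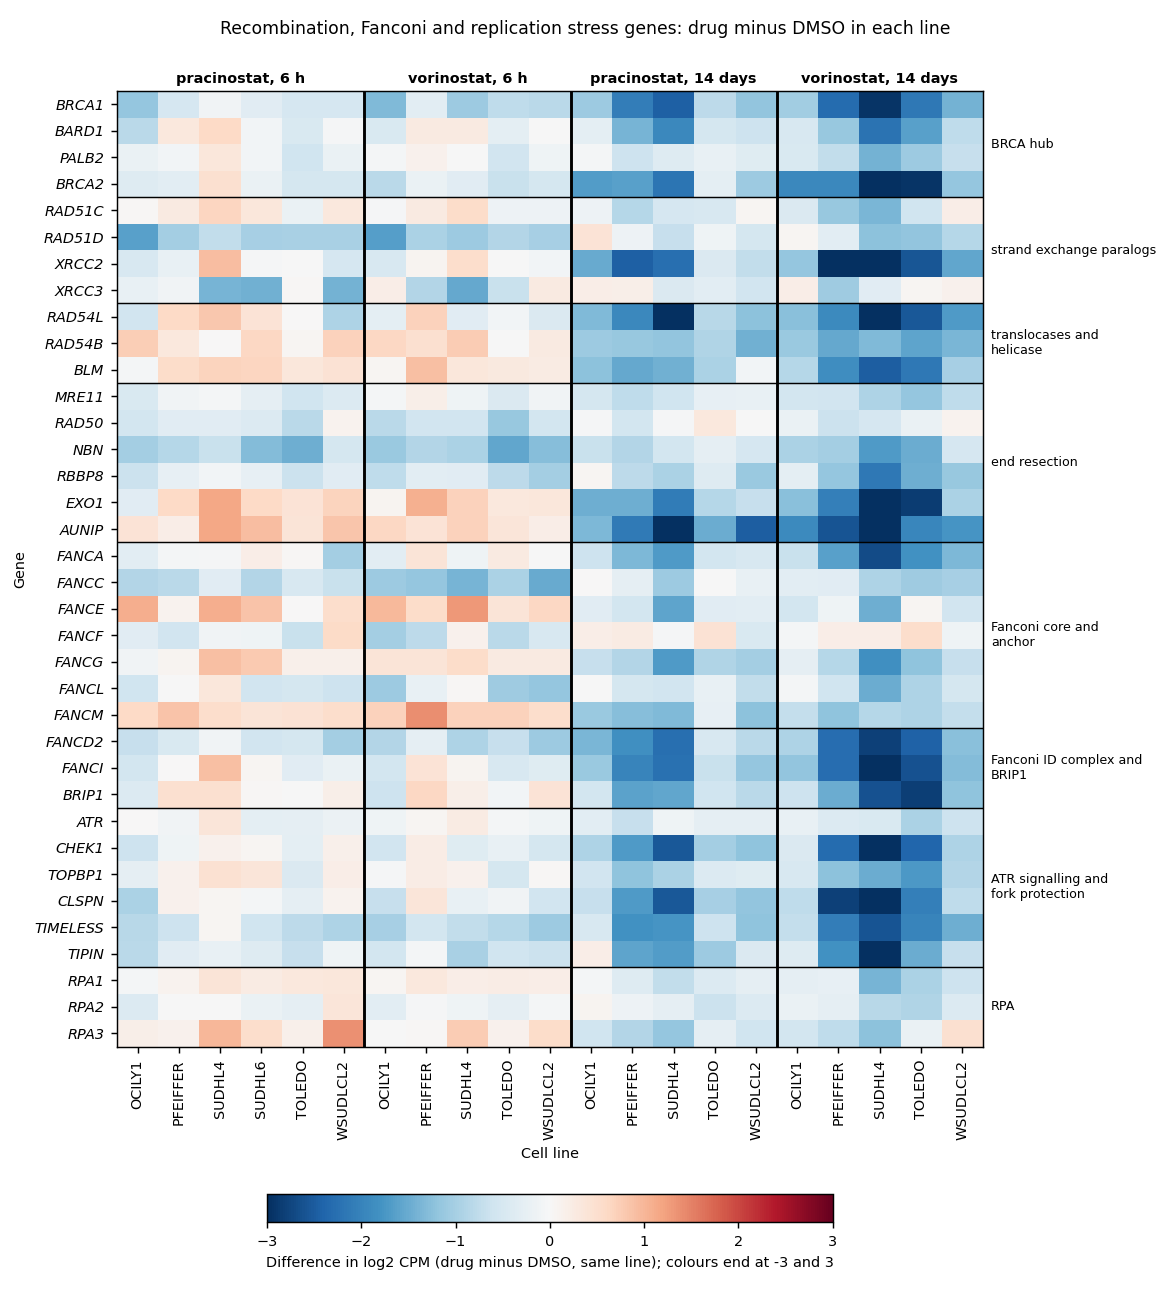
Difference in log2 CPM between drug and DMSO of the same line for 36 genes (rows, by role) and each line (columns) in 4 comparisons, on a colour scale from -3 to 3. The 6 h columns mix both colours, while the 14 day columns are mostly blue and deepest in SUDHL4.

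Whether each drug effect itself changed from 6 h to 14 days was tested with an interaction term in 1 fit of all libraries. At 6 h the drugs shared DMSO libraries headed DMSOV or DMSOP depending on the line, while at 14 days each had its own set. The part of this change of control was not tested. With pracinostat the effect was lower at 14 days than at 6 h for 18 of the 36 genes and higher for 1, where 9.83% and 9.53% of 15420 genes were called. With vorinostat it was lower for 24 and higher for 2, where 12.2% and 11.2% were called. AUNIP changed most, by -2.77 (SE 0.36, edgeR adjusted p = 2.01e-05) and -2.88 (SE 0.38, edgeR adjusted p = 1.05e-05). AUNIP, EXO1, BLM and FANCM were called higher at 6 h and lower at 14 days with both drugs, and RPA3 with pracinostat. The share of all genes with such opposite calls was not counted. FANCG was higher at 6 h with vorinostat (0.39) and lower at 14 days (-0.93). RAD51D went the other way with pracinostat, from -1.09 to -0.19 (change 0.88, SE 0.22, edgeR adjusted p = 0.00721), a call lost without OCILY1 (0.61, adjusted p = 0.0521). Without SUDHL4 11 genes were called for pracinostat and without PFEIFFER 12.

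With vorinostat the change from 6 h to 14 days was above 0 for 7 of the 36 genes and 54.9% of all genes. The 2 called above 0 were RAD50 (0.50, SE 0.18, edgeR adjusted p = 0.048) and FANCF (0.78, SE 0.25, edgeR adjusted p = 0.022). FANCC (0.57, edgeR adjusted p = 0.0876) and RAD51D (0.49, edgeR adjusted p = 0.138) had estimates of like size that were not called. Leaving out OCILY1, SUDHL4, SUDHL6, TOLEDO or WSUDLCL2 lost the RAD50 call (adjusted p = 0.0571 to 0.212), and leaving out OCILY1, PFEIFFER or TOLEDO lost that of FANCF (0.0859 to 0.141). RAD50 had 117, 153 and 200 CPM as lowest, median and highest in 6 h DMSO, 80.2, 113 and 178 with pracinostat (log2 -0.41, SE 0.10) and 66.7, 103 and 135 with vorinostat (log2 -0.77, SE 0.11). FANCF was at 12.0, 23.5 and 34.8 CPM in 6 h DMSO and 7.02, 16.1 and 20.0 with vorinostat (log2 -0.63, SE 0.19, edgeR adjusted p = 0.0154), a call lost without OCILY1 (adjusted p = 0.0844), PFEIFFER (0.0675) or TOLEDO (0.0538). For RAD50, 79.7% of exon bases are shared with AC116366.3 on the same strand, and for FANCF 11.3% with GAS2 on the opposite strand.

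**Figure D5:**
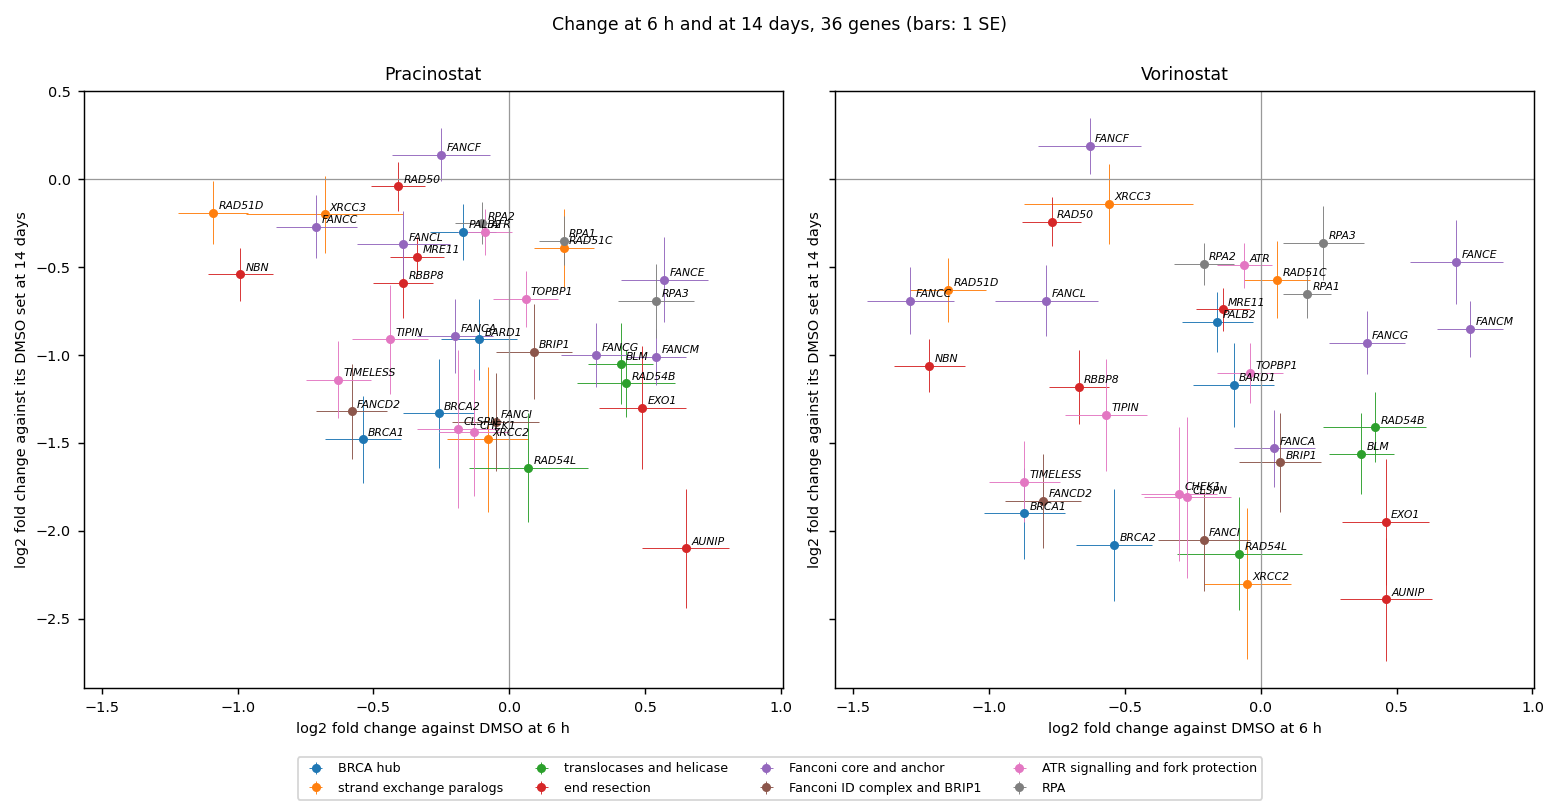
Log2 fold change against DMSO at 6 h (x axis) and at 14 days (y axis) for 36 genes with bars of 1 SE, coloured by role, pracinostat left and vorinostat right. Points spread to both sides of 0 at 6 h and lie below 0 at 14 days, except FANCF.

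The drugs were compared with each other at each time, at doses that are not given. None of the 36 genes differed at an adjusted p under 0.05 in edgeR at either time, where 0.0152% of all genes differed at 6 h and 0% at 14 days. At an unadjusted p under 0.05 there were 5 genes at 6 h and 2 at 14 days, all with the higher value for pracinostat, against 9.21% and 3.93% of all genes. The 5 at 6 h were BRCA1, RAD50, RBBP8, FANCC and FANCL, with FANCC (pracinostat minus vorinostat 0.58, 95% interval 0.23 to 0.93) and RAD50 (0.36, 0.12 to 0.60). At 14 days the difference of the 2 drug effects, each against its own DMSO set, was above 0 for 30 of 36 genes and 49.6% of all, with a median of 0.40 against 0. The DMSO sets enter this difference. DMSOP minus DMSOV was below 0 for 34 of the 36 genes and 6686 of all 14037, with a median of -0.15 against 0.01 over all genes. The 95% interval was 0.07 to 0.96 for NBN, 0.03 to 1.00 for PALB2, -0.33 to 1.16 for BRCA1 and -0.40 to 2.05 for XRCC2. Intervals of this width do not show that the drugs act alike.

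The 2 DMSO sets at 14 days were compared in the same way. No gene of the 36 and no other gene differed in edgeR (0% called), and at an unadjusted p under 0.05 there were 0 of the 36 and 83 of 14037, or 0.591%. By line, the median of DMSOP minus DMSOV over the 36 genes was 0.02 in OCILY1, -0.01 in PFEIFFER, -0.12 in SUDHL4, -0.19 in TOLEDO and -0.42 in WSUDLCL2. In WSUDLCL2 33 of the 36 genes were lower in DMSOP, as were 48.6% of 10636 genes with a mean of at least 5 CPM. At least 2-fold lower were 3 of the 36 and 0.715% of the 10636. When the control was the average of the 2 sets, 29 genes were called lower with pracinostat and 30 with vorinostat. Calls over all genes with pracinostat rose as well, by the counts given under processing, and those with vorinostat are not given here.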

How the data were processed

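Per the labels' protocols, Trizol RNA went into the Illumina TruSeq RNA kit. STAR, edgeR and hg38 are named per the submitters' processing notes, with no versions. The strand setting of the counting is not given in the sources used here. The authors deposited raw counts per gene for 37 libraries and a table of normalized log2 CPM. Of 38 samples listed, 1 of a pair with the same title (SUDHL4 given vorinostat for 14 days) matched no column and was not analysed here. Gene positions and exon overlaps came from GENCODE 29 for 17859 of 18011 identifiers, and promoter windows from RefSeq (GRCh38.p14).

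Tests on the counts used edgeR 4.0.16 (R 4.3.3) with TMM factors, genes kept by filterByExpr at a minimum count of 10 and a total of 15, and the robust quasi-likelihood fit, each time fitted apart, line as block, and an interaction fit of all libraries. A gene was called at a Benjamini-Hochberg adjusted p under 0.05 over all genes tested. The spread was pooled over all treatments of a time. The line pairs the samples, since it is the same cell line: deviations from group means correlated at 0.78 to 0.94 for pairs of 1 line and -0.53 to 0.18 for pairs of different lines at 6 h, and at 0.54 to 0.97 and -0.50 to 0.23 at 14 days. P-values measure the spread between these libraries, which may in part be technical. CPM in the text uses TMM library sizes, and line differences use log2 CPM with a prior count of 2. Alternatives were DESeq2 1.42.0, limma 3.58.1 on the deposited log2 values, RLE factors, library totals, no filter, no block, the mean DMSO control and each line left out. The test was also checked on simulated data. Members, lists and motifs were chosen with earlier results of these data known. Genes with values in every library are, per role, the largest and the smallest mean absolute change, and those called against the main direction or in opposite directions at both times. NBN and RAD51D were added after their values were seen. Some genes of the wider lists are not reported here.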

Additional observations from a re-analysis of the deposited data

Results flagged for a closer look

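In 10 of 144 gene and comparison pairs 1 line stood apart from the others, by the ratio of its gap to the whole range (Dixon's criterion at the 95% level), and chance gives about 1 in 20 groups. Values are log2 CPM differences between drug and DMSO of the line. With pracinostat at 6 h SUDHL4 stood above the other lines for BRCA2 (0.47 against -0.52 to -0.21), XRCC2 (0.92 against -0.50 to -0.01) and TIMELESS (0.07 against -0.93 to -0.60). OCILY1 stood below them for RAD51D (-1.63 against -1.03 to -0.73) and CLSPN (-0.96 against -0.26 to 0.13). With vorinostat at 6 h OCILY1 was low for RAD51D (-1.65 against -1.09 to -0.89) and PFEIFFER high for FANCM (1.39 against 0.52 to 0.70). With pracinostat at 14 days SUDHL4 was low for FANCC (-1.08 against -0.27 to 0.01) and FANCE (-1.59 against -0.54 to -0.31), and TOLEDO was the least changed for FANCM (-0.24 against -1.32 to -1.12).

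The drug effect differed between the times in the interaction test of edgeR for the following genes, with the log2 change from 6 h to 14 days. With pracinostat it was lower at 14 days for BRCA1 (-0.96), BARD1 (-0.82), BRCA2 (-1.09), XRCC2 (-1.41), RAD54L (-1.72), RAD54B (-1.60), BLM (-1.49), EXO1 (-1.81), AUNIP (-2.77), FANCE (-1.16), FANCG (-1.35), FANCM (-1.57), FANCI (-1.36), BRIP1 (-1.09), CHEK1 (-1.32), TOPBP1 (-0.76), RPA1 (-0.58) and RPA3 (-1.25), and higher for RAD51D (0.88). With vorinostat it was lower for BRCA1 (-1.06), BARD1 (-1.09), PALB2 (-0.68), BRCA2 (-1.56), XRCC2 (-2.27), RAD54L (-2.06), RAD54B (-1.87), BLM (-1.96), MRE11 (-0.63), EXO1 (-2.42), AUNIP (-2.88), FANCA (-1.60), FANCE (-1.22), FANCG (-1.34), FANCM (-1.65), FANCD2 (-1.06), FANCI (-1.86), BRIP1 (-1.70), ATR (-0.46), CHEK1 (-1.51), TOPBP1 (-1.09), CLSPN (-1.55), TIMELESS (-0.88) and RPA1 (-0.85), and higher for RAD50 (0.50) and FANCF (0.78). In 5 lines at 14 days and 6 at 6 h, 10 of the 19 pracinostat calls and 17 of the 26 vorinostat calls were kept whichever line was left out.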

How the results depend on the processing

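No call of the 36 genes changed direction under any alternative run. Counts of called genes moved by over 1.5 times without the block, in 1 setting of the control and in some fits without 1 line. Without the replicate block, edgeR called 577 genes and 2 of the 36 for pracinostat at 6 h, and 1106 and 6 for vorinostat at 6 h. At 14 days that fit called 8 genes and 0 of the 36 for pracinostat, and 696 and 14 for vorinostat. For pracinostat at 14 days 18 of the 36, all lower, and 1457 of all genes had an unadjusted p under 0.05. The interactions gave 75 and 2 for pracinostat and 252 and 3 for vorinostat. Without the block 0 genes were called between the drugs at 6 h (121 at an unadjusted p under 0.05), where the blocked fit called 2. Against the average of the 2 DMSO sets, pracinostat at 14 days called 5008 genes, where DMSOP alone as control gave 3167. Leaving out 1 line gave these ranges, of which those of pracinostat at 14 days and of its interaction pass 1.5 times: 4312 to 4891 genes and 14 to 18 of the 36 for pracinostat at 6 h, 4703 to 5626 and 14 to 17 for vorinostat at 6 h, 1424 to 2766 and 10 to 23 for pracinostat at 14 days, 3961 to 4636 and 27 to 31 for vorinostat at 14 days, 1599 to 2892 and 11 to 21 for the pracinostat interaction, and 2574 to 3417 and 18 to 26 for the vorinostat interaction. Between the drugs at 6 h each such fit called 0 genes. Lows came without PFEIFFER (1424) and SUDHL4 (1599), and pracinostat at 14 days called 1793 genes without SUDHL4 and 1970 without OCILY1. These fits have fewer libraries. The cause of the other shifts was not tested. DESeq2 called 20, 18, 24 and 30 of the 36 in the 4 drug comparisons and limma on the deposited values 17, 18, 21 and 31. Depth limits EXO1 in SUDHL4 with vorinostat at 14 days, at 0.683 CPM, where 3 counts correspond to 0.941 CPM. AUNIP and XRCC2 were also at low counts in that library.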

Other observations

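Other repair pathways were set beside the 36 genes at 14 days, with the same test and with lists chosen when earlier results were known. Of 7 mismatch repair genes 2 were lower with pracinostat and 7 with vorinostat and 0 higher, with medians of -0.52 and -0.84. Among them MSH6, which recognises mispaired bases, fell with both drugs (log2 -0.59, SE 0.12, edgeR adjusted p = 0.00332, and -1.13, SE 0.12, edgeR adjusted p = 3.27e-05). MSH3, which recognises larger loops, fell as well (log2 -0.71 and -1.07). Of 19 end joining genes 7 and 9 were lower and 0 and 1 higher, with medians of -0.32 and -0.41. POLQ, the polymerase of microhomology end joining, fell (log2 -1.12 and -1.52), and LIG3, a ligase of the same route, too (log2 -0.89 and -1.58).

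Base and nucleotide excision repair had medians nearer to 0 than end joining, with 4 lower and 1 higher of 22 genes with pracinostat, 3 lower and 2 higher with vorinostat, and medians of -0.03 and -0.12. Over all genes 10.2% and 17.2% were called lower. UNG, which removes uracil from DNA, fell (log2 -1.13 and -1.43), while SMUG1, another uracil glycosylase, rose (log2 0.83 and 1.09), and OGG1, which removes oxidised guanine, rose with vorinostat (log2 0.45). Of 18 E2F and DREAM regulators, the factors that switch cell cycle genes on and off, 11 and 13 were lower and none higher, with FOXM1 at -1.69 and -2.44 and E2F8 at -1.63 and -2.53.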
